A study of Homo sapiens with 12 samples.

Results

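Cholesterol and fatty acid synthesis was followed through a module of 32 genes, chosen by name from the enzymes of both pathways and their regulators, in 2 established human mantle cell lymphoma lines. Each gene was read by the probe set that carried its symbol alone and had the highest mean log2(signal + 3) over the 12 arrays. Such a probe set stood for 29 of the 32 genes, of 19775 genes so named. FDFT1, the squalene synthase, was not measured by this rule, and neither were CYP51A1, a lanosterol demethylase, and FADS1, a fatty acid desaturase, whose probe sets carry several symbols. MVD, the mevalonate diphosphate decarboxylase, had signals from 0.9 to 17.9 and FADS2, another fatty acid desaturase, from 0.5 to 7.5. Their mean signals of 9.5 and 4.0 lay under the filter of 12.55, so 27 members were tested among 11548 genes.

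Both lines carry a labelled lesion of the NIK pathway, a TRAF2 nonsense change in Z-138 and a deletion of TRAF3 in Maver-1. All cells of both lines carried a doxycycline-inducible hairpin kept under 0.5 ug/ml puromycin: the non-targeting control NTC, or NIKsh#1 or NIKsh#2, which target MAP3K14 and so the kinase NIK. Each of these 6 cultures was grown for 7 days with 0 or with 100 ng/ml doxycycline, which gave 8 groups by line, knockdown and doxycycline, with 1 array in each NTC group and 2 arrays, 1 per hairpin, in each NIKsh group. Whether a culture was a clone or a pool is not stated in the labels, and the p-values cover no more than the spread of these cultures, which may be technical. In bulk RNA, fewer cells of a type and less RNA per cell cannot be told apart.

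Cells make cholesterol from acetyl-CoA through mevalonate, the isoprenyl diphosphates, squalene and lanosterol, and make fatty acids from the same acetyl-CoA through malonyl-CoA. Most of these enzymes are transcribed under SREBP factors, which the escort protein SCAP carries from the endoplasmic reticulum to the Golgi for cleavage when membrane sterol is low, while INSIG proteins hold the complex back when it is high. Growing lymphoid cells use both pathways for new membrane, and the isoprenyl intermediates also anchor small GTPases to it.

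The arrays had median signals of 10.6 to 14.1. ACTB, read by control probe sets at either end of its transcript, had a 3' to 5' ratio (higher where RNA is degraded or copied short) of 2.33 to 2.92 in the untreated Z-138 cultures and 3.66 to 6.88 in the untreated Maver-1 cultures. With doxycycline the order turned, at 4.62 to 6.34 in Z-138 and 3.80 to 4.43 in Maver-1. MAP3K14 changed with doxycycline by between -0.68 and -0.08 on the log2 scale in the 4 NIKsh cultures and by 0.24 and 0.76 in the NTC cultures, with the least loss in Z-138 NIKsh#2. Of 7 B cell markers 6 were measured and all 6 passed the filter, and their summed signal was 4839.7 to 7744.2 in Z-138 and 8049.8 to 9610.7 in Maver-1. The summed signal of 5 measured T and NK cell markers was 77.3 to 202.6 in Z-138, mostly CD3G, and 11.5 to 26.3 in Maver-1, while CD3D, CD3E and CD2 were at or under 8.3 on every array. The 6 monocyte markers summed to 14.4 to 34.1 over both lines, and CD14 was at or under 3.1. Of 7 fibroblast, epithelial and endothelial markers EPCAM, KRT18 and PECAM1 passed the filter, and the sum was 80.7 to 422.1 in Z-138 and 854.4 to 1173.5 in Maver-1. The ACTB ratios and these sums differ between the lines, and their part in the line differences given next was not tested.

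The promoters of the members were read for 3 short motifs, because SREBP factors bind sterol regulatory elements with NF-Y as a partner. RefSeq promoters (GRCh38.p14) matched 28 of the 32 members with 38 start sites, and the 250 bases before each start were searched on both strands. The NF-Y box CCAAT lay in 24 of 38 member promoters (63.2%), in 20 members, and in 32% of all 35116 promoters. The E-box CACGTG lay in 5 of 38 (13.2%), in 4 members, and in 6.34% of all promoters. The sterol regulatory element TCACNCCAC lay in 1 of 38 (2.63%), that of SREBF2, and in 0.883% of all. These shares are a description of letters in a window and say nothing of binding. The windows of SC5D, SREBF2 and STARD4 are printed here. These members differed between the lines both without and with doxycycline and hold matches before their outermost start. The window of INSIG1, which passed only without doxycycline, was added. All 4 were chosen after the values were seen, and other members that differed without doxycycline also hold matches. Among these, IDI1 and DHCR7 differed with doxycycline as well and hold NF-Y boxes, and their windows are not printed. Motif matches are in capitals, and each window is read 5′ to 3′ on the gene's strand. SC5D holds an E-box and an NF-Y box on the reverse strand (chr11:121292620-121292739, plus strand). SREBF2 holds the sterol regulatory element followed by an NF-Y box on the reverse strand (chr22:41832952-41833023, plus strand). STARD4 holds a pair of NF-Y boxes (chr5:111512641-111512716, minus strand). INSIG1 holds an NF-Y box on the reverse strand and an E-box (chr7:155297688-155297848, plus strand).
SC5D: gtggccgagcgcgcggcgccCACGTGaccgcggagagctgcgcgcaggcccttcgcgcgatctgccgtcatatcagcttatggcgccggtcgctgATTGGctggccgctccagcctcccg
SREBF2: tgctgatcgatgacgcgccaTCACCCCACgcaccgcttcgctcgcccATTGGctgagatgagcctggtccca
STARD4: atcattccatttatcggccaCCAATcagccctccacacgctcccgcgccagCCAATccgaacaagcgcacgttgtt
INSIG1: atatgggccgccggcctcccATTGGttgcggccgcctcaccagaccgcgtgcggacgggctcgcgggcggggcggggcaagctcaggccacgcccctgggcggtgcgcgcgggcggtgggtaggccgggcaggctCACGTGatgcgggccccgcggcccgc

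The first comparison set Z-138 against Maver-1 without doxycycline, with 3 cultures per line. Of the 27 members, 20 differed (74.1%; limma, adjusted p under 0.05), where 60.2% of all genes tested did. Of these, 7 were higher in Z-138 (25.5% of all genes were) and 13 were lower (34.8% of all genes). The enzymes between acetyl-CoA and the isoprenyl diphosphates were mostly higher in Z-138, with 4 higher and 1 lower of 6. The enzymes from squalene to cholesterol ran the other way, with 7 lower and 0 higher of 9. Of the SREBP regulators and STARD4, 1 was higher and 3 were lower of 6, and of the fatty acid genes 2 were higher and 2 lower of 6. The median difference of the members was -0.21 on the log2 scale, and that of all genes -0.08. The groups did not overlap for 21 of 27 members, and did not for 65.8% of all genes. Centring the arrays on their medians shifted every difference by 0.13, moved the median of the members to -0.09 and gave 8 higher and 9 lower. Of the 20 calls 10 held whichever culture was left out: IDI1, LSS, MSMO1, SC5D, DHCR7, INSIG1, INSIG2, SREBF2, STARD4 and ELOVL6. Leaving out the NTC culture of Z-138 left 16 members called, its NIKsh#1 culture 18 and its NIKsh#2 culture 15. For Maver-1 the counts were 15, 13 and 16 in the same order, and beside the lowest of them 54% of all genes passed.

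The early enzymes differed by modest amounts. IDI1, the isopentenyl diphosphate isomerase, had untreated signals of 1167.5, 1213.8 and 1284.9 in Z-138 and 955.1, 918.6 and 856.6 in Maver-1, in the order NTC, NIKsh#1 and NIKsh#2 that holds for every such list. All Z-138 cultures lay above all Maver-1 cultures, and the log2 difference was 0.42 ± 0.08 (SE of the limma model, adjusted p = 0.000459). A second bright probe set of IDI1 gave 0.49. PMVK, the phosphomevalonate kinase, was higher by 0.52 ± 0.17 (adjusted p = 0.0176), with 1164.8 in Z-138 NTC against 673.9 and 818.1 in the other Z-138 cultures and 498.3 to 671.3 in Maver-1, so that Z-138 NIKsh#1 and the highest Maver-1 culture lay close together. ACAT2, the cytosolic acetoacetyl-CoA thiolase, had 608.7 ± 41.8 (SD, n = 3) in Z-138 and 510.1 ± 17.6 in Maver-1 and was higher by 0.25 ± 0.09 (adjusted p = 0.0331). FDPS, the farnesyl diphosphate synthase, had 1795.5 ± 32.2 and 1590.8 ± 97.4 and was higher by 0.18 ± 0.07 (limma, adjusted p = 0.0415). FDPS kept its sign in all 14 alternatives but lost its call in 8 of them. HMGCS1, the cytosolic HMG-CoA synthase, was the 1 early member that was lower in Z-138, at 805.7 ± 97.1 (SD, n = 3) against 1026.9 ± 91.7, a difference of -0.35 ± 0.10 (adjusted p = 0.0101). MVK, the mevalonate kinase, had 50.8 ± 4.9 in Z-138 and 45.7 ± 5.3 in Maver-1 and did not pass.

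The late sterol enzymes held the widest differences of the module. DHCR7, which makes cholesterol from dehydrocholesterol, had untreated signals of 25.4, 27.5 and 33.3 in Z-138 and 201.3, 219.8 and 179.5 in Maver-1. The lines were far apart in every culture, by -2.68 ± 0.165 (adjusted p = 1.64e-08), or 6.42-fold lower in Z-138 on the log2(signal + 3) scale. Its other probe set gave -2.12. SC5D, the sterol desaturase that acts just before DHCR7 and whose promoter window is printed above, had 84.4, 77.3 and 82.1 in Z-138 and 259.5, 245.2 and 230.1 in Maver-1. It was 2.94-fold lower in Z-138, with a log2 difference of -1.56 ± 0.13 (adjusted p = 3.27e-07), again without overlap.

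Another 5 members of the squalene to cholesterol route were lower in Z-138 by less. LSS, the lanosterol synthase, had 151.1, 265.8 and 268.1 in Z-138 and 403.2, 370.9 and 321.7 in Maver-1, a difference of -0.71 ± 0.19 (adjusted p = 0.00568), but its other probe sets were dim and gave 0.25 and 0.81, and the mean over its probe sets turned to 0.11 (adjusted p = 0.489). TM7SF2, a sterol reductase, had 88.9, 91.6 and 109.1 in Z-138 and 125.4, 162.7 and 127.4 in Maver-1 and differed by -0.50 ± 0.16 (adjusted p = 0.0134). MSMO1, the methylsterol monooxygenase, had 892.7 ± 40.4 and 1130.9 ± 85.6 (SD, n = 3) and differed by -0.34 ± 0.08 (adjusted p = 0.0034). HSD17B7, a ketosteroid reductase, had 203.7 ± 21.8 and 252.3 ± 16.8 and was close to the threshold, at -0.31 ± 0.13 (limma, adjusted p = 0.0475). The HSD17B7 call was lost in 9 of 14 alternatives. NSDHL, a sterol decarboxylase, differed by -0.44 ± 0.14 (adjusted p = 0.0158). It was the 1 called member whose lines overlapped, with 413.6, 465.2 and 415.2 in Z-138 and 712.6, 615.8 and 457.1 in Maver-1. SQLE, the squalene epoxidase, and EBP, a sterol isomerase, did not pass, at 0.16 ± 0.10 and -0.11 ± 0.07, although neither overlapped between the lines. SQLE passed here with median centring and with the mean of probe sets, its 3 dimmer probe sets differing by 0.32, 0.98 and 0.86, and EBP turned positive under both of these settings.

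The regulators split by gene. SREBF2, which encodes the SREBP that favours cholesterol genes, had 338.7, 332.7 and 361.0 in Z-138 and 588.2, 718.9 and 635.5 in Maver-1. It was lower in Z-138 without overlap, by -0.90 ± 0.10 (adjusted p = 7.06e-06), and a second probe set gave -0.95. INSIG1, which retains the SCAP complex and is itself a SREBP target, had 1950.4, 1990.7 and 1912.6 in Z-138 and 1299.4, 1349.6 and 1270.4 in Maver-1. It was higher in Z-138 by 0.58 ± 0.07 (adjusted p = 5.98e-06), and its other probe sets gave 0.61 and 0.80. Its paralogue INSIG2, which has the same retaining role, was lower in Z-138, at 358.3 ± 49.3 against 492.3 ± 23.8 (SD, n = 3), a difference of -0.46 ± 0.12 (adjusted p = 0.00368).

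STARD4, a cytosolic protein that carries sterol between membranes, had 115.8, 135.1 and 83.7 in Z-138 and 263.1, 328.4 and 266.9 in Maver-1. Its lines did not overlap, and it was 2.56-fold lower in Z-138 (log2 difference -1.36 ± 0.17, adjusted p = 1.6e-05). SCAP itself had 219.7 ± 38.7 in Z-138 and 252.8 ± 11.5 in Maver-1 and did not pass (adjusted p = 0.194). SREBF1, which encodes the SREBP that favours fatty acid genes, was dim at 44.8 ± 12.4 and 34.0 ± 4.6 and did not pass either, while its second probe set, with mean signals of 50.7 and 9.1, gave 2.52, and with the mean of both it passed.

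Of the fatty acid genes, FASN, the fatty acid synthase, was higher in Z-138 with 69.6, 80.3 and 85.3 against 48.2, 57.5 and 60.1, a difference of 0.48 ± 0.17 (adjusted p = 0.024) without overlap. With the mean over its probe sets it turned to -0.06 (adjusted p = 0.847), its second probe set having mean signals of 4.1 and 7.2, and it lost the call without Z-138 NIKsh#1, Z-138 NIKsh#2 or Maver-1 NTC. SCD, the stearoyl-CoA desaturase, had 2382.9 ± 203.9 in Z-138 and 2074.8 ± 55.9 in Maver-1 (SD, n = 3). It was higher by 0.20 ± 0.07 (limma, adjusted p = 0.029) and lost its call in 7 of 14 alternatives. ACACA, the acetyl-CoA carboxylase, had 408.9 ± 51.4 and 534.5 ± 45.6 and was lower by -0.39 ± 0.12 (adjusted p = 0.0104), but its second probe set, at 219.7 in Z-138 against 80.5 for the Maver-1 mean, went the other way, at 1.44. ELOVL6, an elongase of saturated fatty acids, had 638.8 ± 73.7 and 857.1 ± 113.2 and was lower by -0.42 ± 0.11 (adjusted p = 0.00614). ELOVL5, an elongase of polyunsaturated fatty acids, and ACLY, which makes cytosolic acetyl-CoA from citrate, did not pass, at -0.09 and 0.05. ELOVL5 turned positive with median centring, and ACLY turned negative and passed with the mean of its probe sets.

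**Figure D1:**
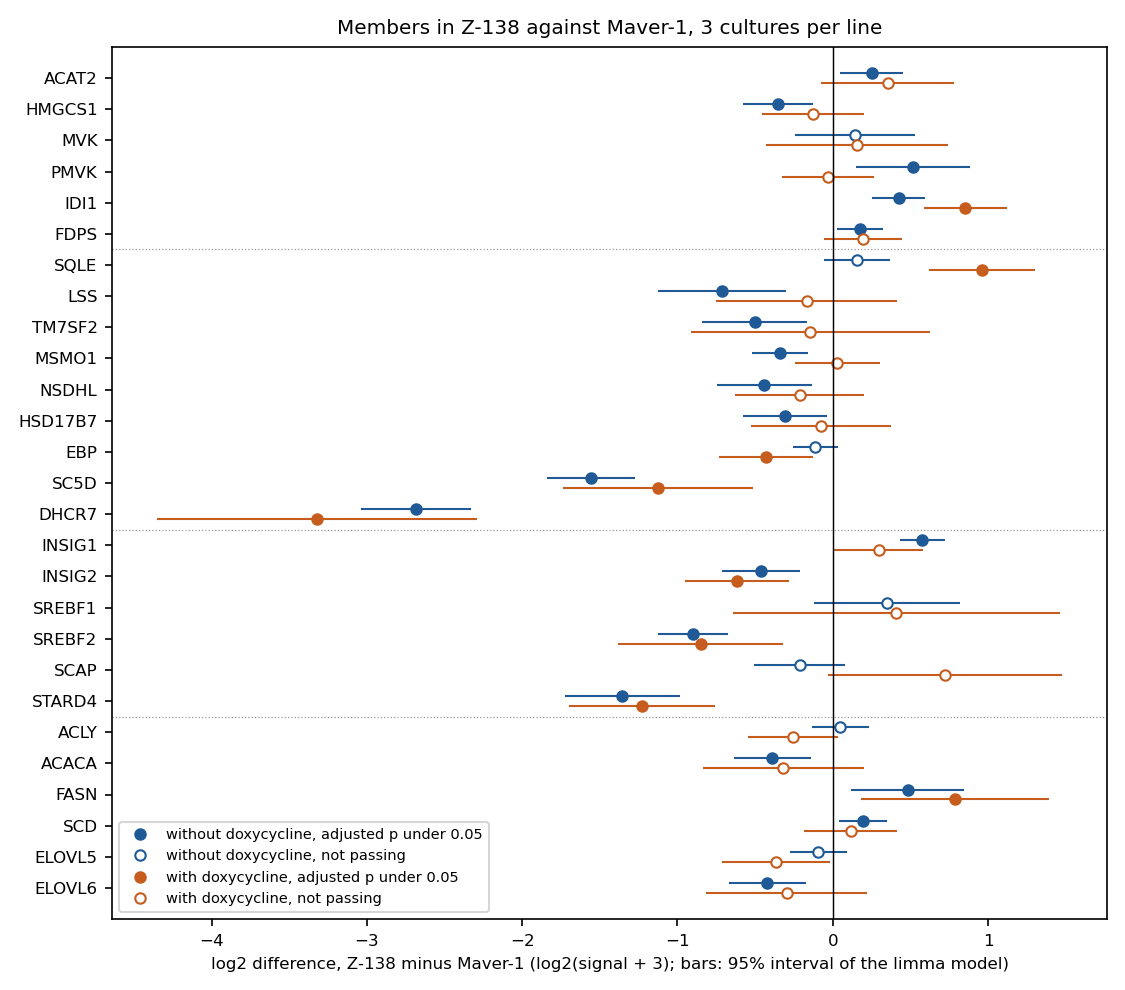
Log2 difference of Z-138 minus Maver-1 for the 27 tested members, on the log2(signal + 3) scale, without doxycycline (blue) and with it (orange), 3 cultures per line. Bars are 95% intervals of the limma model, filled points have an adjusted p under 0.05, and dotted lines part the roles. DHCR7 lies furthest from 0, at -2.68 without and -3.32 with doxycycline, and SQLE moves from 0.16 to 0.96.

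The line comparison was repeated on the other 6 arrays, those of the same cultures with doxycycline, which are not independent cultures. Here 9 of 27 members differed (33.3%; limma, adjusted p under 0.05), against 36.3% of all genes, with 3 higher in Z-138 (17.3% of all genes) and 6 lower (19.1%). The contrast between early and late enzymes was weaker. The early enzymes had 1 higher and 0 lower of 6, and those from squalene to cholesterol 1 higher and 3 lower of 9. The groups did not overlap for 11 members and for 49.8% of all genes. A set of 7 members passed in both conditions with the same sign: IDI1 and FASN were higher in Z-138, and SC5D, DHCR7, INSIG2, SREBF2 and STARD4 were lower. Of these, FASN had 88.1 ± 23.6 in Z-138 and 49.1 ± 8.8 in Maver-1 (SD, n = 3) with doxycycline, a difference of 0.79 ± 0.27 (adjusted p = 0.0466) that lost its call without a filter and without any 1 culture other than Z-138 NIKsh#1. The ACTB ratio ran in opposite orders between the lines in the 2 conditions, but the GAPDH 3' to 5' ratio did not. Without doxycycline the GAPDH ratio was 1.15 to 1.30 in Z-138 and 1.54 to 2.39 in Maver-1. With doxycycline the lines overlapped, at 1.36 to 2.00 and 1.415 to 1.68. The part of either ratio in these differences was not tested. In all, 23 of 27 members kept their sign. With median centring the split was 4 higher and 5 lower, and without Maver-1 NTC only 5 members passed (25% of all genes): IDI1, SQLE, SC5D, DHCR7 and STARD4.

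DHCR7 had 23.2, 4.9 and 22.1 in Z-138 with doxycycline and 229.4, 164.6 and 129.7 in Maver-1, with Z-138 NIKsh#1 far below every other culture. The log2 difference was -3.32 ± 0.46 (adjusted p = 0.000515). SC5D had 84.9, 67.9 and 140.0 against 215.1, 190.9 and 215.7, with no overlap and a difference of -1.13 ± 0.27 (adjusted p = 0.0106). Its second probe set, at 2.1 to 13.1 on all arrays, gave 0.18, and with the mean of both SC5D lost its call, at -0.47 (adjusted p = 0.345). STARD4 had 114.8 ± 20.1 in Z-138 and 272.1 ± 34.7 in Maver-1 (SD, n = 3) and differed by -1.23 ± 0.21 (adjusted p = 0.00172). SREBF2 had 320.1 ± 100.6 and 561.4 ± 61.5 and differed by -0.85 ± 0.23 (adjusted p = 0.0201). INSIG2 had 324.8 ± 25.1 and 499.0 ± 30.7 and differed by -0.62 ± 0.15 (adjusted p = 0.0106). IDI1 had 1793.6, 1482.4 and 1760.1 in Z-138 and 948.2, 840.1 and 993.3 in Maver-1, a wide gap of 0.85 ± 0.12 (adjusted p = 0.000546).

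SQLE and EBP passed with doxycycline and, in the main setting, not without it. SQLE differed by 0.96 ± 0.15 (adjusted p = 0.00114), and EBP by -0.43 ± 0.13 (adjusted p = 0.0335), where the other 2 bright probe sets of EBP gave -0.89 and -0.83 with doxycycline but 0.24 and 0.40 without it. INSIG1 kept its direction at 0.30 ± 0.13, still without overlap, but did not pass (adjusted p = 0.0986). PMVK and MSMO1, called without doxycycline, gave -0.03 and 0.03 with it.

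**Figure D2:**
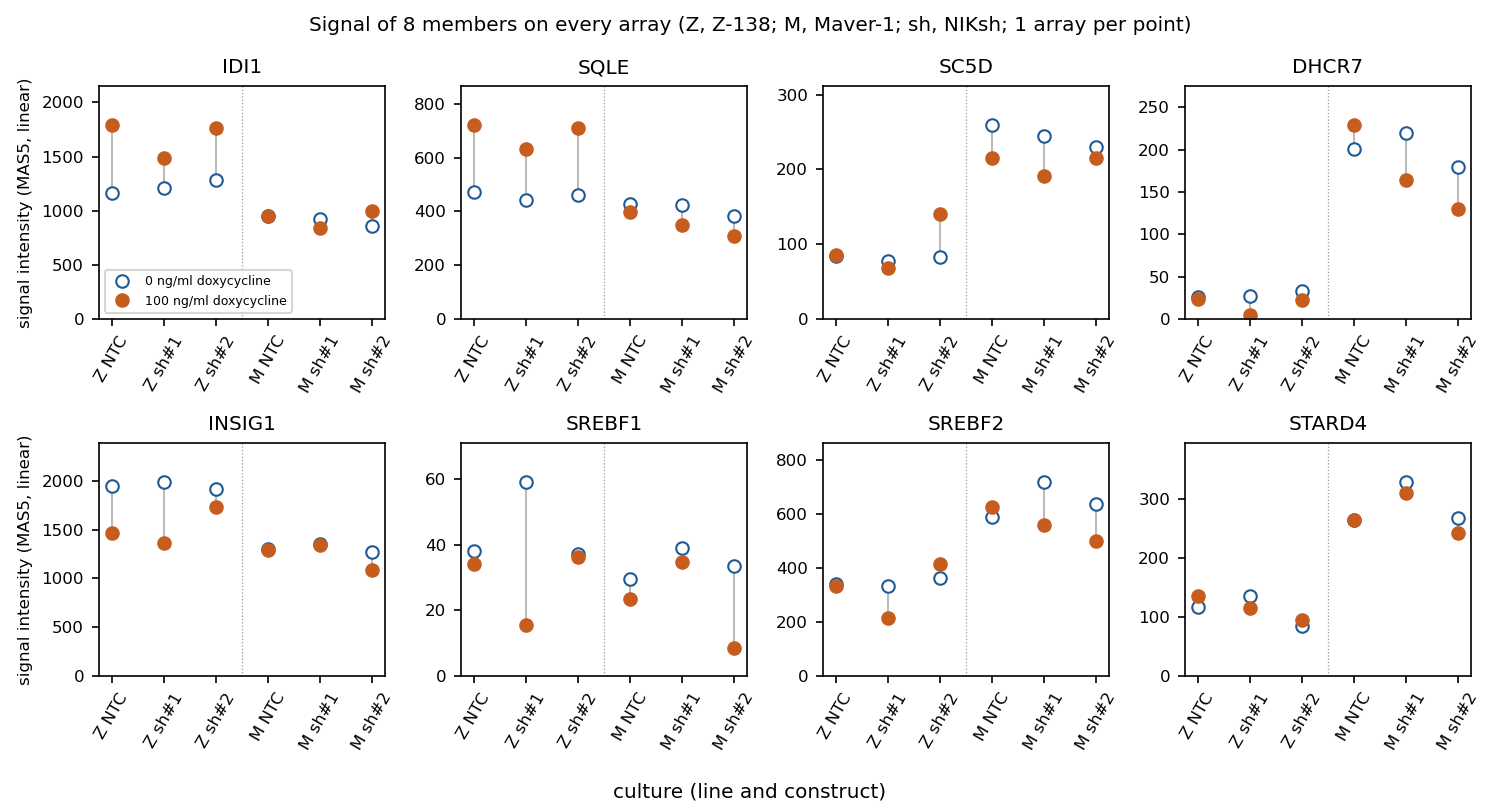
Linear MAS5 signal of 8 members on every array, by culture, without doxycycline (open blue) and with it (filled orange), each pair of a culture joined by a line. In SC5D, DHCR7, SREBF2 and STARD4 all Z-138 points lie below all Maver-1 points, and SQLE goes up with doxycycline in the 3 Z-138 cultures and down in the 3 Maver-1 cultures.

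The knockdown comparison asked whether doxycycline changed the members in the 4 NIKsh cultures. In Z-138 NIKsh#2 the MAP3K14 signal had gone only from 52.0 to 49.2, so the loss of target RNA there was slight. None of the 27 members passed (limma), where 0.0433% of all genes did, and 3 members had an unadjusted p under 0.05, against 8.98% of all genes. The median change of the members was -0.07 and that of all genes 0.01. The SREBP regulators and STARD4 had negative values in 6 of 6 genes, from -0.90 to -0.07, and 7 of the 9 late sterol enzymes had positive ones, but none of these passed, and 12 of the 27 members changed sign under at least 1 alternative. No member was higher with doxycycline in all 4 NIKsh cultures (9.95% of all genes were), and 4 members were lower in all 4 (8.29% of all genes were): DHCR7, INSIG1, INSIG2 and SREBF1.

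DHCR7 had NIKsh changes of -1.95 and -0.53 in Z-138 and -0.41 and -0.46 in Maver-1, and NTC changes of -0.12 and 0.19. Z-138 NIKsh#1, where the signal went from 27.5 to 4.9, stood apart from the other 3, and the second DHCR7 probe set changed there by -0.35. The mean NIKsh change was -0.84 ± 0.26 (adjusted p = 0.346), and the difference from NTC was -0.87 ± 0.45 (adjusted p = 0.884). SREBF1 had -1.75 and -0.04 in Z-138 and -0.15 and -1.67 in Maver-1, with a mean of -0.90 ± 0.31 (adjusted p = 0.41). Its large changes sat in different hairpins of the lines, and its signal was 8.5 to 59.1 over all arrays. INSIG1 changed by -0.23 ± 0.10 (adjusted p = 0.53). TM7SF2, the late sterol reductase, had the highest mean of the members at 0.40 ± 0.19 (adjusted p = 0.597), from 0.64 and 0.93 in Z-138 and -0.04 and 0.09 in Maver-1.

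INSIG1 and SREBF1 were lower with doxycycline in 6 of 6 cultures, NTC included, as were 1.7% of all genes, and no member was higher in all 6 (2.34% of all genes were). INSIG1 gave -0.41, -0.54 and -0.15 in Z-138 and -0.01, -0.01 and -0.23 in Maver-1, so that its Maver-1 values were close to 0. Its 2 other probe sets were higher in Z-138 NIKsh#2, at 0.26 and 0.06, and so did not hold the sign. The second SREBF1 probe set did not either, at 1.41 in Maver-1 NTC, where its signal went from 1.3 to 8.4.

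In the 2 NTC cultures none of 27 members passed (0% of all genes did; limma), and 1 member had an unadjusted p under 0.05, against 3.35% of all genes. LSS had the highest NTC mean at 0.59 ± 0.32 (adjusted p = 0.895), from 1.33 in Z-138 and -0.16 in Maver-1, so that 1 culture set it. In the test of NIKsh minus NTC none of 27 passed either (0% of all genes), with 1 member, ACACA, at an unadjusted p under 0.05 (5.43% of all genes). ACACA, the carboxylase that makes malonyl-CoA, changed with the control hairpin by 0.67 in Z-138 and by 0.26 in Maver-1, and by -0.47 to 0.01 in the NIKsh cultures, a difference of -0.67 ± 0.22 (adjusted p = 0.878). All of its NIKsh values lay below its NTC values by this probe set, but not by the second, which changed by -0.33 and 0.16 in NTC and by -1.08 to -0.04 in the NIKsh cultures.

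The hairpins were also set against each other. None of 27 members differed between NIKsh#1 and NIKsh#2 (0% of all genes; limma), and 1 member, SCD, had an unadjusted p under 0.05 (1.75% of all genes). SCD changed by 0.02 and 0.07 with NIKsh#1 and by -0.39 and -0.37 with NIKsh#2, a difference of 0.43 ± 0.14 (adjusted p = 1.0). It ran the same way in both lines by this probe set only. By the next brightest, Maver-1 changed by -0.071 with NIKsh#1 and by 0.245 with NIKsh#2, the other way. Before induction, NIKsh and NTC cultures did not differ in any of 27 members (0% of all genes), with 0 members at an unadjusted p under 0.05 against 4.78% of all genes. Those 27 differences ranged from -0.17 to 0.29, and their median was 0.01.

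**Figure D3:**
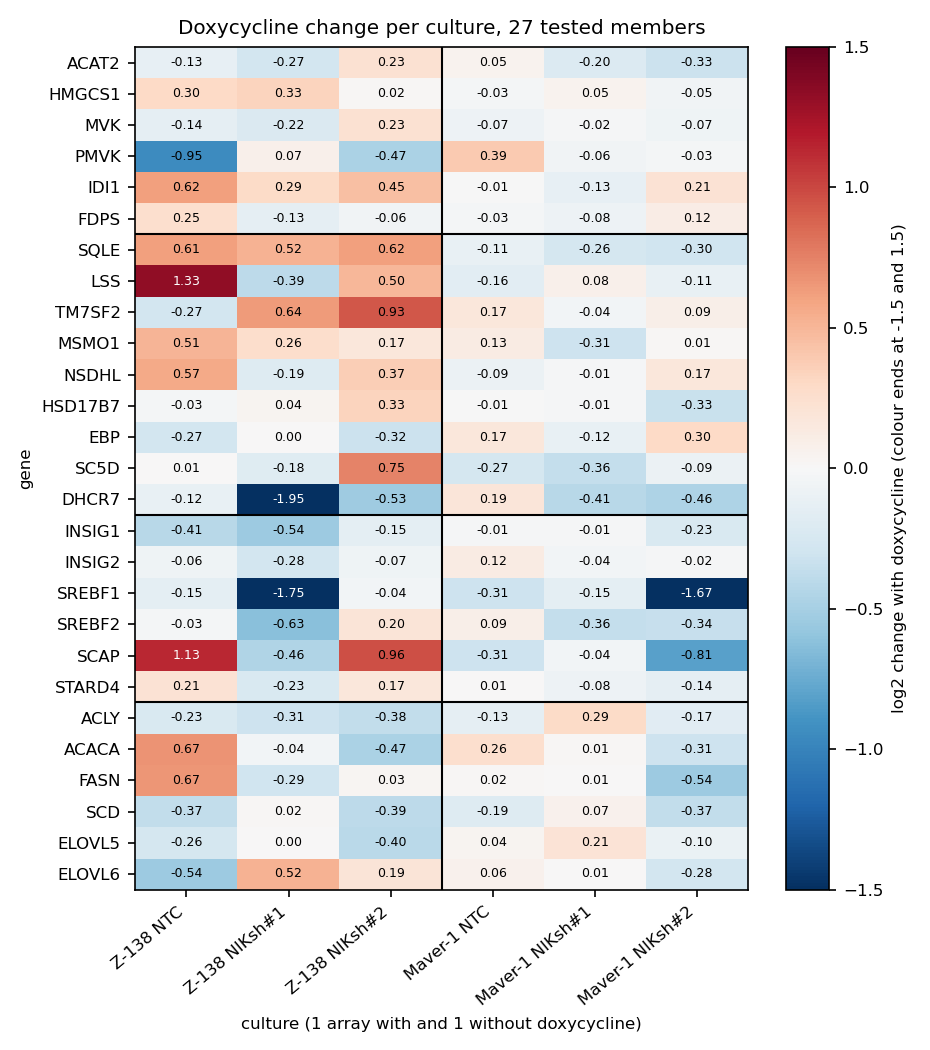
Log2 change with doxycycline of the 27 tested members (rows) in each of the 6 cultures (columns), 1 array with against 1 array without doxycycline, on the log2(signal + 3) scale. Values run from -1.95 (DHCR7, Z-138 NIKsh#1) to 1.33 (LSS, Z-138 NTC), and outside SREBF1 and SCAP in NIKsh#2 no Maver-1 value is below -0.54 or above 0.39.

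The response to doxycycline was then read by line, over all 3 constructs. In Z-138, 1 of 27 members rose and 0 fell (limma), where 1.26% of all genes passed, 0.719% higher and 0.537% lower. That member was SQLE, which makes the first oxygenated sterol precursor. Its signal went from 471.3 to 722.8 in NTC, from 441.9 to 633.9 in NIKsh#1 and from 462.1 to 712.1 in NIKsh#2, so that every treated culture lay above every untreated one. The change was 0.58 ± 0.12 (adjusted p = 0.0466), 1.5-fold. By this probe set it was alike with and without a hairpin against MAP3K14, at 0.61, 0.52 and 0.62. In Maver-1 the signal went from 429.4 to 398.9, from 422.4 to 351.3 and from 381.9 to 310.1, a change of -0.22 ± 0.12 that did not pass (adjusted p = 1.0). The difference between the lines was 0.81 ± 0.16 and did not pass over all genes (adjusted p = 0.177).

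The SQLE call stood near its threshold. Its change kept its direction in 16 of 16 alternatives, at 0.21 to 0.62, but it lost the call in 9 of them, with adjusted p from 0.0274 to 0.566 over all 16. These 9 were the leaving out of Z-138 NIKsh#2, Maver-1 NTC, Maver-1 NIKsh#1 or Maver-1 NIKsh#2, and the settings without a filter, with quantile normalization, with median centring, with the mean of probe sets and without a variance trend. In 6 of these 9 no gene of the whole table passed. Its 3 other probe sets, with mean signals of 10.9 to 61.7, gave 0.35, 0.07 and -0.14 in Z-138. Over NTC, NIKsh#1 and NIKsh#2 they gave -0.01, 0.64 and 0.40, then -0.49, 0.60 and 0.11, then -0.78, 0.83 and -0.47. These dim probe sets were thus not alike over the constructs. The ACTB ratio was also higher with doxycycline in the 3 Z-138 cultures, while in Maver-1 it was lower in NTC and NIKsh#1 and went from 3.66 to 3.80 in NIKsh#2, and its part in the SQLE change was not tested.

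Other members had the same sign in all 3 Z-138 cultures without passing. Of the 27, 10 had an unadjusted p under 0.05, against 21.4% of all genes. IDI1 went from 1167.5 to 1793.6, from 1213.8 to 1482.4 and from 1284.9 to 1760.1, an increase in every culture of 0.45 ± 0.10 on average (adjusted p = 0.0573), and its second bright probe set gave 0.31. INSIG1 went from 1950.4 to 1463.8, from 1990.7 to 1366.3 and from 1912.6 to 1727.8, a decrease in every culture of -0.37 ± 0.09 (adjusted p = 0.0769). HMGCS1, IDI1, SQLE and MSMO1 were higher in all 3 Z-138 cultures (19.7% of all genes were), and DHCR7, INSIG1, INSIG2, SREBF1 and ACLY were lower in all 3 (15.3% of all genes).

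In Maver-1 none of 27 members passed (0% of all genes; limma) and 0 had an unadjusted p under 0.05 (2.14% of all genes). No member was higher in all 3 Maver-1 cultures (13.6% of all genes were), and 7 were lower in all 3 (16.7%): MVK, SQLE, HSD17B7, SC5D, INSIG1, SREBF1 and SCAP. In the test of Z-138 minus Maver-1 none of 27 passed (0% of all genes), with 5 members, IDI1, SQLE, MSMO1, EBP and SCAP, at an unadjusted p under 0.05 against 13.7% of all genes. Restricted to the NIKsh cultures, the same test again called 0 of 27 members, against 0.121% of all genes, and 4 members, SQLE, TM7SF2, ACLY and ELOVL6, had an unadjusted p under 0.05 (8.59% of all genes).

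Within Z-138, several members had a shift in NTC and NIKsh#2 that was near 0 or of the other sign in NIKsh#1, from 1 pair of arrays each and so with no test. These members were picked after the values were seen, and the share of all genes with this split was not counted. SCAP changed by 1.13 and 0.96 in NTC and NIKsh#2 and by -0.46 in NIKsh#1. LSS changed by 1.33 and 0.50 against -0.39, and PMVK by -0.95 and -0.47 against 0.07. The 2 other bright EBP probe sets changed by -1.49 and -1.24 in NTC and by -1.10 and -1.24 in NIKsh#2, but by -0.003 and -0.05 in NIKsh#1. The GAPDH 3' to 5' ratio moved with this split, from 1.17 to 2.00 in NTC and from 1.15 to 1.83 in NIKsh#2. In NIKsh#1 it went from 1.30 to 1.36, and its part was not tested. Other members split otherwise. TM7SF2 changed by -0.27 in NTC and by 0.64 and 0.93 in NIKsh#1 and NIKsh#2, and ELOVL6 by -0.54 against 0.52 and 0.19. Without Z-138 NIKsh#1, 6 of 27 members passed in Z-138 (8.95% of all genes): IDI1, SQLE, LSS and SCAP rose and PMVK and SCD fell. SCAP, LSS and PMVK were named here for their departure in that culture, so their calls without it do not bear on the split.

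**Figure D4:**
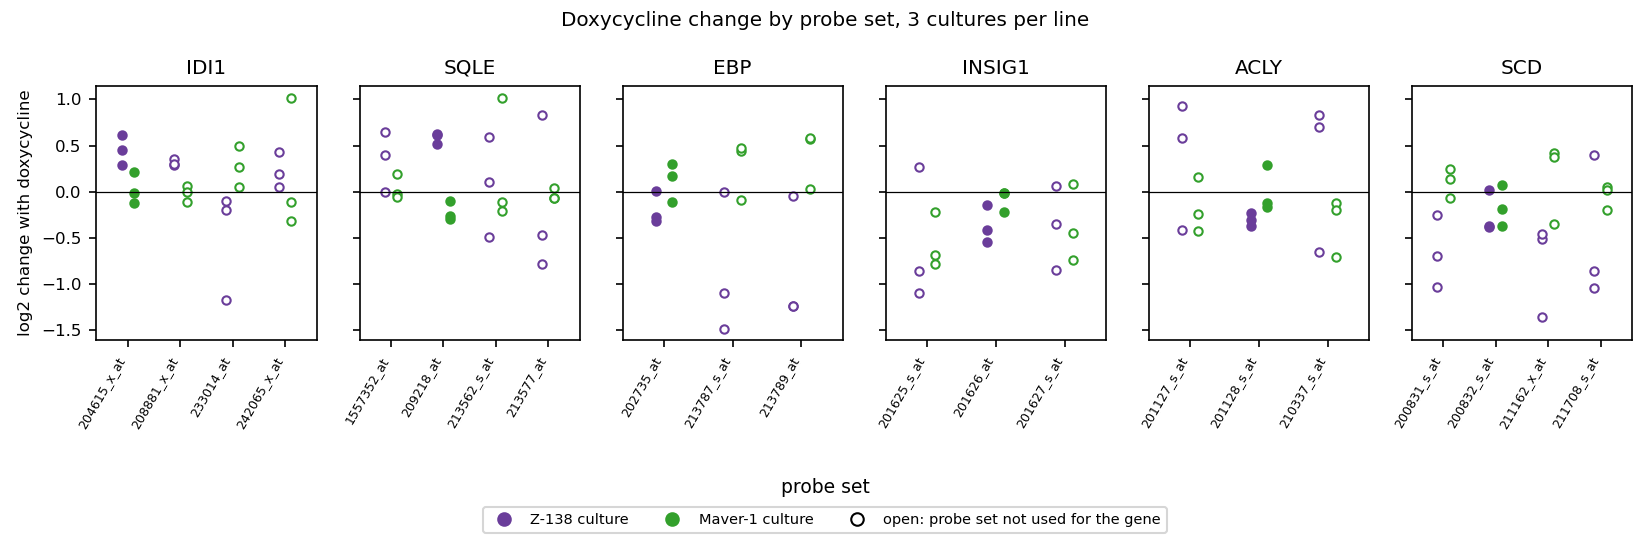
Log2 change with doxycycline of every probe set of 6 members, 1 point per culture (purple, Z-138; green, Maver-1), filled for the probe set that stood for the gene, leaving out an EBP probe set under the signal filter. In Z-138 the filled ACLY probe set is at -0.31 on average while its other probe sets average 0.36 and 0.29, and the filled EBP probe set is at -0.20 while the others shown average -0.86 and -0.84.

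Probe sets of the same member often disagreed on the doxycycline change. ACLY averaged -0.31 in Z-138 by the probe set that stood for it and 0.36 and 0.29 by its other probe sets. In those, Z-138 NTC and NIKsh#2 lay between 0.58 and 0.93 and NIKsh#1 at -0.42 and -0.65, the split described for SCAP and LSS. SCD averaged -0.25 in Z-138 by its main probe set and -0.66 by its next brightest, with -1.04, -0.25 and -0.70 in the 3 cultures. Of the 18 tested members with several probe sets, 7 had 1 sign over all of them for the change in Z-138, 8 for that in Maver-1, 10 for the line difference without doxycycline and 11 for that with it. With dim probe sets left out these were 8, 8, 10 and 11 of 16. DHCR7, SREBF2, INSIG1 and IDI1 were among the 10, while LSS, EBP, ACLY, ACACA, ELOVL5 and ELOVL6 differed in sign there also without the dim probe sets.

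Neighbouring pathways were counted from 6 lists with 84 tested genes. Without doxycycline 15 of them (17.9%) were higher in Z-138 and 36 (42.9%) lower, beside 25.5% and 34.8% of all genes. With doxycycline 8 (9.52%) were higher and 15 (17.9%) lower, beside 17.3% and 19.1% of all genes. The 12 glycerolipid and phospholipid genes then had 0 higher and 3 lower. Without doxycycline, the 14 tested genes of sterol storage, transport and oxysterol response had 2 higher and 6 lower. Among them ABCA1, a cholesterol exporter, was higher by 0.95 ± 0.10, LIPA, the lysosomal acid lipase, was lower by -0.93 ± 0.09, and GRAMD1C, a sterol transporter at membrane contacts, was also lower. GRAMD1C had 3.2, 2.5 and 4.9 in Z-138, under the filter level, and 33.5, 41.5 and 30.4 in Maver-1, so that the size of its difference is set by the pseudocount, from -3.02 with 1 to -1.38 with 16. With the mean over probe sets ABCA1 gave 0.20 and LIPA -0.11, and neither passed. Of 12 glycerolipid and phospholipid genes 9 were lower and 0 higher, with DGAT2, which makes triglyceride, at 197.7, 208.1 and 176.0 in Z-138 and 934.5, 1027.9 and 1018.0 in Maver-1, a difference of -2.34 ± 0.10. Of 17 other fatty acid synthesis genes 4 were higher and 8 lower. SCD5, a second stearoyl-CoA desaturase, had 700.7 to 754.5 in Z-138 and 17.0 to 43.3 in Maver-1, 27.1-fold higher in Z-138 (log2 difference 4.76 ± 0.25, adjusted p = 3.65e-09), where the member SCD differed by 0.20. With the mean over its probe sets SCD5 differed by 1.35.

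Of 13 genes of SREBP processing 3 were higher and 2 lower without doxycycline. Of 14 genes of the isoprenoid, dolichol and ubiquinone branches 3 were higher and 6 lower, and of 14 fatty acid oxidation genes 3 and 5. Beside these counts, 25.5% of all genes were higher and 34.8% lower. The medians of the 6 lists lay between -0.52 for glycerolipid synthesis and 0.07 for SREBP processing, with -0.08 for all genes.

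With doxycycline in the NIKsh cultures 0 genes of the 6 lists passed (limma), and 3 genes of them had an unadjusted p under 0.05 (3.57%), beside 0.0433% and 8.98% of all genes. In Z-138 over all constructs 2 of the 84 fell (2.38%, beside 0.537% of all genes) and 0 rose, both exporters of cholesterol that oxysterol receptors are known to induce. ABCA1 went from 600.0 to 391.3 in NTC, from 554.3 to 300.8 in NIKsh#1 and from 594.2 to 397.5 in NIKsh#2, a fall in each culture of -0.69 ± 0.14 on average (adjusted p = 0.0477). ABCG1 went from 1008.0 to 835.3, from 939.5 to 253.9 and from 1026.2 to 391.2, least in NTC, although the NIKsh minus NTC test called no gene, and fell by -1.18 ± 0.23 on average (adjusted p = 0.0465). In the NIKsh cultures alone the ABCG1 change differed between the lines by -1.45 ± 0.20 (adjusted p = 0.046), with 1229.6 to 1148.7 and 1160.8 to 967.6 in Maver-1. That difference kept its direction in 16 of 16 alternatives, at -1.70 to -1.18, and lost its call in 6, with adjusted p up to 0.354. The changes of both genes in Z-138 kept their direction in all 16 alternatives and lost their call in 9 of them, among these the leaving out of Z-138 NIKsh#2 and of each Maver-1 culture, with values from -0.74 to -0.30 for ABCA1 and from -1.63 to -0.83 for ABCG1.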

How the data were processed

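The authors deposited 1 linear signal intensity per probe set and array, made with MAS5 per the submitters' processing notes; MAS5 settings, detection calls and the annotation they used are not given in the sources used here. On every array the mean intensity without the lowest and highest 2% of probe sets was 150.02, so the deposited values had been scaled, and no further normalization was applied. MAS5 summarises each probe set on its own array, and dim values hold noise. Total RNA was amplified and biotin-labelled before hybridisation, per the labels' protocols.

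Of 54675 probe sets, 41097 carried 1 gene symbol in the platform annotation, updated to RefSeq where the gene ID matched (41043). Another 1801 carried several and were not used for genes, and 11777 were unnamed. Each of 19775 genes was read by its probe set with the highest mean log2(signal + 3). A filter on mean signal at 12.55 (median over the array medians) kept 11548 of them. Log2 changes on this scale understate those of dim genes, and signals of different genes were not compared.

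The tests used limma 3.58.1 (R 4.3.3) over all genes kept (two-sided moderated test, variance trend, Benjamini-Hochberg adjustment, threshold 0.05). The same fit was run on simulated data for some comparisons, with changes wider than those of most members. That run does not bear on smaller changes. Doxycycline comparisons used all 12 arrays with culture as a fixed block, since the labels' protocols describe cells of 1 construct split between media. Line comparisons used the 6 untreated or the 6 treated arrays. Across genes, the deviations of the arrays of a hairpin from their group means had correlations of -0.038 (Z-138) and 0.202 (Maver-1), so the data alone do not show the pairing in Z-138. Errors are standard errors of the model unless called SD, and the number of arrays limits the precision.

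The members, lists and tests were chosen with earlier results of these data known. Every member is named, with group signals and test where it passed; the 6 widest changes of each comparison were also followed through the alternatives, and up to 3 genes per neighbouring list by smallest p. Alternatives were other pseudocounts (1 and 16), no filter or one at 123.33, quantile normalization, median centring, the mean of a gene's probe sets, no variance trend, no or a random block, and leaving out each culture. Tables and figures used Python 3.11.15, pandas 2.3.3 and matplotlib 3.10.9.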

Additional observations from a re-analysis of the deposited data

Results flagged for a closer look

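DHCR7 changed with doxycycline by -1.949 on the log2(signal + 3) scale in Z-138 NIKsh#1, further from the other 3 NIKsh cultures, which lay between -0.53 and -0.41, than a group of 4 usually spreads. Chance alone sets apart about 1 in 20 such groups, and 27 members were tested. The signal there with doxycycline was 4.9, and the second DHCR7 probe set changed by -0.35 in that culture.

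SQLE changed with doxycycline in opposite directions in the lines, higher in the 3 Z-138 cultures and lower in the 3 Maver-1 cultures, with a difference of 0.806 that did not pass over all genes (limma, adjusted p = 0.177).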

How the results depend on the processing

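Called genes, and the 6 members with the widest change in each comparison, had the 16 reversals given here. Of the 20 members called untreated, LSS, ACACA and FASN changed sign, and of the 7 not called EBP, ELOVL5 and ACLY did. With doxycycline 0 of 9 called members and 9 of 18 others did. The doxycycline change of 10 members in Z-138 and of 16 in Maver-1 turned under some alternative, none of them called. In the untreated line comparison, IDI1, MSMO1, SC5D, INSIG1, INSIG2, SREBF2 and STARD4 kept their call in 14 of 14 alternatives and DHCR7 in the 13 that tested it. The median member difference there was -0.112 without a filter, -0.308 with the filter at 123.33, -0.086 with median centring and -0.057 with the mean of probe sets. With that mean LSS turned to 0.115, FASN to -0.057, ACACA to 0.526 (adjusted p = 0.00206) and ACAA2, a fatty acid oxidation gene, to 0.092. Leaving out a culture gave 13 to 18 members called untreated and 5 to 11 with doxycycline. In Z-138 with doxycycline, 0 members were called without a filter, with quantile normalization, with median centring, with the mean of probe sets and without a variance trend, and 0 to 6 on leaving out a culture. The mean of probe sets also turned the NTC change of IDI1 to -0.003, the Maver-1 change of SQLE to 0.003 and the LSS difference between lines to -0.009.

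Leaving out a culture gave 0 to 2 members called for the doxycycline difference between lines over all constructs, 0 to 2 for the NIKsh cultures alone (SQLE and SCAP in each case, without Z-138 NIKsh#1, with 3.2% and 3.66% of all genes) and 0 to 2 for untreated NIKsh minus NTC (PMVK and LSS, without Maver-1 NTC, 0.927% of all genes). The median NTC change ran from -0.033 to 0.028 and was -0.001 with median centring. The medians were -0.028 to 0.291 for the NIKsh line difference and -0.318 to 0.038 for the hairpin difference. The NTC changes ran from -0.01 to 0.618 for IDI1, -0.159 to 1.33 for LSS and -0.31 to 1.13 for SCAP. NIKsh minus NTC ran from -1.311 to 0.179 for LSS and -1.218 to 0.222 for SCAP. The NIKsh line difference of SCAP ran from -0.028 to 1.393, the hairpin difference of DHCR7 from -1.453 to 0.085, and untreated NIKsh minus NTC from -0.221 to 0.809 for LSS and -0.423 to 0.087 for NSDHL. The cause of these shifts was not tested.

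Without the replicate block, 1 member (SQLE) was called in Z-138 with doxycycline among 80 genes, with a random block 1 among 93, and with the fixed block 1 among 145. Limits: 3 cultures per line, dim probe sets of DHCR7 in Z-138 and of SREBF1, and 1 probe set per gene.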
